A study of Homo sapiens with 10 samples.

Results

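Replication-dependent histone genes supply the histone proteins that package newly made DNA. In order to follow them under sorafenib, 35 genes were taken from the 22392 genes that had their own transcript cluster on the array. A transcript cluster is a set of probes read as 1 value for a transcript. They are the genes whose symbol has the form of a replication-dependent histone (H1-, H2AC, H2BC, H3C or H4C with a number), each read from a cluster that names no other gene. They comprised 11 genes of class H1, 8 of class H2A, 14 of class H2B, 1 of class H3 (H3C13) and 1 of class H4 (H4C7). The form of the symbol also takes in 7 genes that are not working replication-dependent histone genes: the replication-independent linker genes H1-7, H1-8 and H1-10, the antisense RNA gene H1-10-AS1, and H1-9P, H2AC2P and H2BC20P, in whose symbols the final P stands for pseudogene. A further 40 clusters each named several histone genes at once, which included nearly all H3 and H4 genes, and these are described separately without naming a gene.

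RNA of Huh7, a human hepatocellular carcinoma line, and of a line labelled shRb was measured on 10 Affymetrix HuGene 2.1 ST arrays. Sorafenib, an inhibitor of RAF and of receptor tyrosine kinases, was given at 10 μM for 9 h to shRb cells (3 arrays, replicates 10, 11 and 12) and to Huh7 cells (2 arrays, replicates 5 and 6). Control shRb cells (replicates 7, 8 and 9) and control Huh7 cells (replicates 1 and 3) had no treatment according to the labels, which name no vehicle. The cells were grown in DMEM with fetal calf serum, and the labels do not say whether shRb is 1 clone or a pool, which parent it had or with what vector it was made. RB1, the gene that the name shRb points to, lay at log2 levels of 6.12, 5.56 and 5.35 in shRb cells exposed to sorafenib and 5.56, 5.94 and 5.92 in shRb controls, against 7.94 and 8.07 in Huh7 cells exposed to sorafenib and 8.18 and 7.99 in Huh7 controls. The 9 hepatocyte markers averaged 10.2 to 10.4 on the log2 scale on every array, while the 4 endothelial markers averaged 2.85 to 2.96, under the median cluster of the arrays (3.39 to 3.42). The 5 fibroblast markers averaged 3.78 to 3.97 in shRb cells with sorafenib and 3.77 to 3.93 without it. Over the Huh7 arrays of both groups they averaged 3.94 to 4.09. The 5 leukocyte markers averaged 4.35 to 4.72 over all arrays, but among them LYZ lay at 10.61 to 11.22. Of these 5 markers, 2 lay under the median cluster on every array. Of the marker lists, 1 gene was called under sorafenib, LUM, which rose 1.41-fold in shRb (adjusted p = 0.013 from limma). Without sorafenib, AFP, LUM and ITGAM were lower in shRb than in Huh7. They differed by -0.75, -0.73 and -0.91 on the log2 scale (adjusted p = 0.015, 0.0093 and 0.020 from limma). The part of these markers in the results on histone genes was not tested.

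Histone genes of this kind are transcribed mainly in S phase, when DNA is copied. Their mRNAs have no introns and, in place of a poly(A) tail, end in a stem-loop bound by SLBP, and their transcription in S phase runs through the coactivator NPAT. Most sit in a large cluster on chromosome 6 and in smaller clusters on chromosome 1, as many near-identical copies, and some of them can also be made as polyadenylated mRNA in cells that do not divide. Because copies are so alike, a probe for one gene may also take up RNA of another. The arrays were labelled from total RNA, so mRNA without a poly(A) tail could be detected.

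Sequence upstream of the gene start is shown for the members on which the results turn most: the pair that rose in both lines (H2BC26 and H2AC21), a pair that rose in Huh7 (H2BC13 and H2BC3), the member that fell in both lines (H2BC5), and a linker histone that fell in shRb (H1-5). Each is 220 bases long and ends at the base before the RefSeq start in build GRCh38.p14, read 5′ to 3′ on the strand of the gene. Capitals mark 4 motifs, searched on both strands, so that a reverse complement is in capitals too. They are the octamer (ATTTGCAT), the CCAAT box, spelled as its name says, the TATA box (TATAAA) and the H1 box (AAACACA). The octamer is the site of OCT1 in H2B promoters, and the H1 box is a known element of H1 promoters. The stretches lie at chr1:228457883-228458102 (plus strand) for H2BC26, chr1:149887966-149888185 (minus strand) for H2AC21, chr6:27807930-27808149 (minus strand) for H2BC13, chr6:26043714-26043933 (minus strand) for H2BC3, chr6:26157901-26158120 (plus strand) for H2BC5 and chr6:27867589-27867808 (minus strand) for H1-5.
H2BC26: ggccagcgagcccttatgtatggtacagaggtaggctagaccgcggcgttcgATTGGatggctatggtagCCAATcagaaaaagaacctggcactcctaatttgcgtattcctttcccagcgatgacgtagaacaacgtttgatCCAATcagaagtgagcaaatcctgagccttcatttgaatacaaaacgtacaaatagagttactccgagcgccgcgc
H2AC21: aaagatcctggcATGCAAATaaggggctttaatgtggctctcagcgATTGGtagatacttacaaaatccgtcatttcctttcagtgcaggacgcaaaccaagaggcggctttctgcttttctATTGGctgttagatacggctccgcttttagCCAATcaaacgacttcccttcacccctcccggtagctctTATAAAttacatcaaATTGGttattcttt
H2BC13: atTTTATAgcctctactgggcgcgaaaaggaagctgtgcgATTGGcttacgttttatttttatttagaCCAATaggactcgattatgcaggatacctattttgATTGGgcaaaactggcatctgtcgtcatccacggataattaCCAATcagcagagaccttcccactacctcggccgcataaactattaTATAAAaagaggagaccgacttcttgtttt
H2BC3: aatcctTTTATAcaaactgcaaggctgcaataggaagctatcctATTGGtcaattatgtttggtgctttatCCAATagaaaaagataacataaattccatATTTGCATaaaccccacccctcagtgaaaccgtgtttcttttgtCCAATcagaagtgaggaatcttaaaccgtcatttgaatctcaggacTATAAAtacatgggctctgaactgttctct
H2BC5: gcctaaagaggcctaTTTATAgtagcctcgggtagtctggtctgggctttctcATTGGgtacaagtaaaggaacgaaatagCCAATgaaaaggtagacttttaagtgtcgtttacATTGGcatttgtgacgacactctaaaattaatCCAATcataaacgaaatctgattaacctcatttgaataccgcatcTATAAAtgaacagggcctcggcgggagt
H1-5: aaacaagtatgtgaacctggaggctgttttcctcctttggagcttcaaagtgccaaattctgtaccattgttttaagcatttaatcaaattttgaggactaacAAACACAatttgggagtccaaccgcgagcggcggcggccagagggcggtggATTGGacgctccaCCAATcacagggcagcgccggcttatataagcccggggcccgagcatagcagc

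Of the 28 replication-dependent members, 27 had a promoter sequence in RefSeq, and 250 bases before the start were searched. The octamer was found in 14 of these 27 (51.9%), against 454 of 27305 promoters in all (1.66%). It lay in 5 of 6 H2A and in 9 of 13 H2B promoters and in none of the 6 H1 promoters. In 4 pairs of members the windows overlap on opposite strands, so the same site can be counted for both genes. The octamers of H2AC1 and H2BC1, of H2AC14 and H2BC14, and of H2AC20 and H2BC21 are such shared sites. The CCAAT box was found in 26 of the 27 (96.3%; all promoters 33.0%) and the TATA box in 19 (70.4%; all promoters 11.1%). The H1 box was found in 6 of 6 H1 promoters and in no H2A, H2B, H3 or H4 promoter of the set, against 4.95% of all promoters. Among the H2A and H2B genes shown, exact matches to the octamer differed. H2BC3 had one at position -120 from the start and H2AC21 at position -208, while H2BC26, H2BC13 and H2BC5 had no exact match. Near matches were not searched for, so a site with a changed letter was not counted. H2BC26, H2BC13, H2BC3 and H2BC5 had a CCAAT box at positions -76, -76, -76 and -73. H2BC13, H2BC3 and H2BC5 had the TATA box at positions -30, -30 and -28, and H2BC26 had none. A match is only a run of letters, and the motifs do not overlap each other in the stretches shown.

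**Figure D1:**
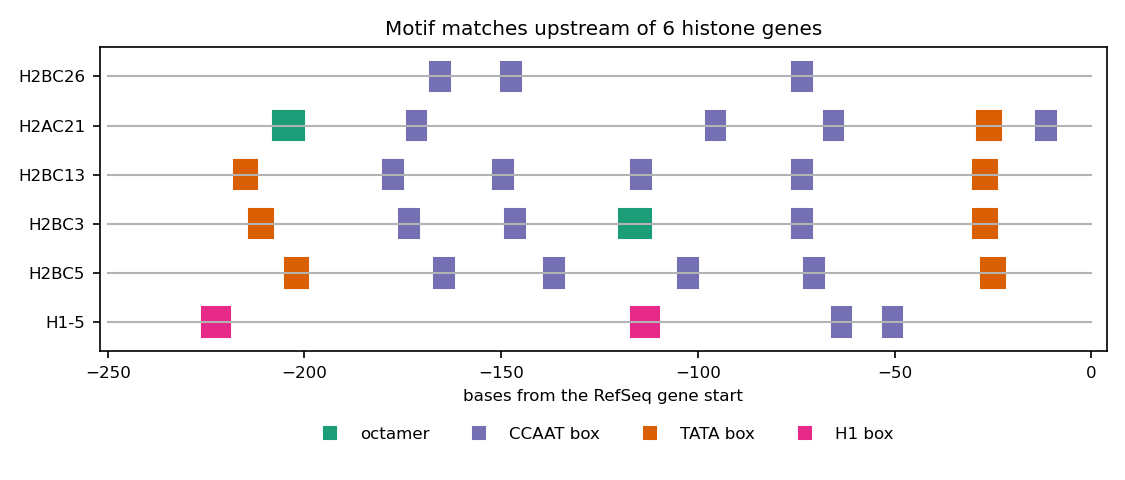
Matches to 4 motifs (coloured boxes) in the 250 bases before the RefSeq start of 6 histone genes, with bases from the start on the horizontal axis. H2BC26 has 3 CCAAT boxes and no TATA box, and H1-5 is the gene of the 6 with the H1 box.

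Sorafenib raised some histone genes and lowered others. In Huh7 cells 5 of the 35 members rose at an adjusted p under 0.05 from limma, where 1.00% of all genes rose, and 1 fell, where 0.893% of all genes fell. In shRb cells 2 rose, where 2.96% of all genes rose, and 4 fell, where 3.74% of all genes fell. The median log2 difference of the 35 members between sorafenib and control was 0.05 in Huh7 cells (all genes 0.02) and -0.05 in shRb cells (all genes 0.00). All of the members called belonged to the 28 replication-dependent genes, whose medians were 0.05 in Huh7 and -0.08 in shRb. By class, the rises were 1 H1, 1 H2A and 3 H2B genes in Huh7 and 1 H2A and 1 H2B gene in shRb, and the falls were 1 H2B gene in Huh7 and 3 H1 genes and 1 H2B gene in shRb. Without 1 array the Huh7 rises numbered 2 (without control replicate 1 or 3) or 1 (without sorafenib replicate 6), and the shRb rises 1 (without replicate 7, 8, 9, 11 or 12). Huh7 had 2 falls without shRb sorafenib replicate 10 or 12. The methods' t-test (Student's, which the paper names for cell experiments, not for the arrays) called 0 members in either line after adjustment. At an unadjusted p under 0.05 it called 11 in Huh7 and 12 in shRb. The labels do not tell on which array strip a sample was run, so a batch that ran with sorafenib cannot be told apart from it, and a rise of a gene per cell cannot be told apart from a larger share of cells that express it.

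**Figure D2:**
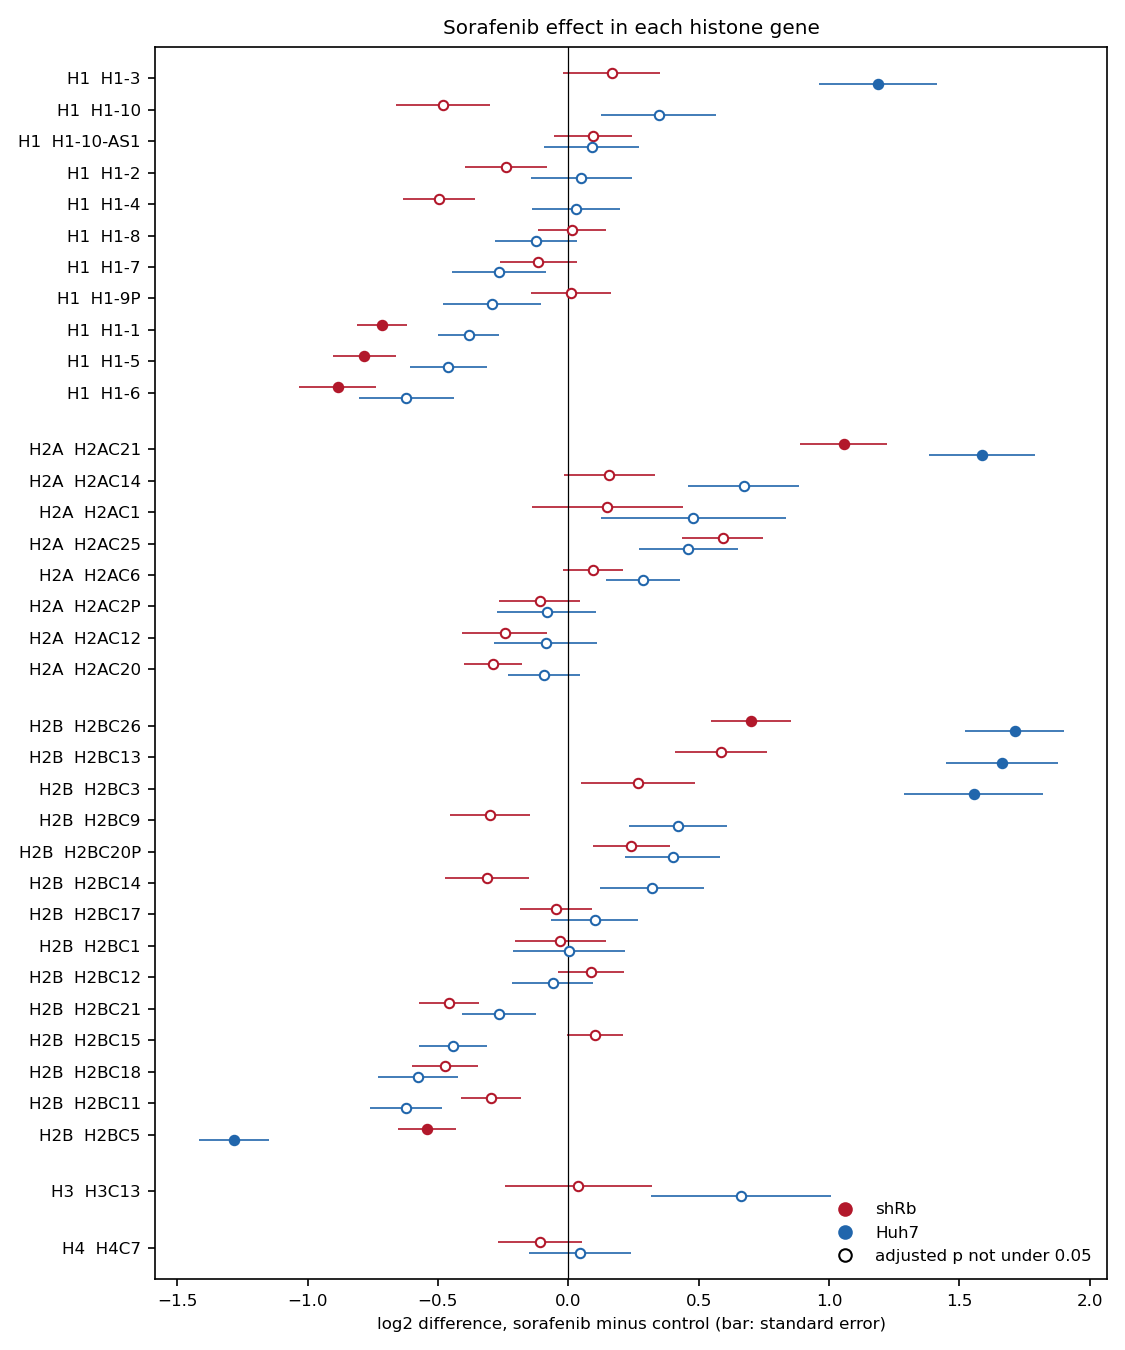
Log2 difference between sorafenib and control for each of the 35 histone genes, grouped by class, in shRb (red) and Huh7 (blue), with standard errors from limma. Filled points have an adjusted p under 0.05, and in Huh7 these are 5 rises and 1 fall, in shRb 2 rises and 4 falls.

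H2BC26 (HIST3H2BB), an H2B gene of the small HIST3 locus on chromosome 1, rose in both lines. Its log2 level was 8.16 and 8.51 in Huh7 cells exposed to sorafenib, against 6.81 and 6.43 in Huh7 controls, and it was 7.73, 8.18 and 8.06 in shRb cells exposed to sorafenib, against 7.25, 7.28 and 7.33 in shRb controls. The groups did not overlap in either line, and the shRb controls lay above both Huh7 controls. This was a rise of 3.28-fold in Huh7 (log2 1.71, SE 0.19, adjusted p = 0.0028 from limma) and of 1.63-fold in shRb (log2 0.70, SE 0.15, adjusted p = 0.030 from limma). The call in shRb was lost when replicate 7, 8, 9, 11 or 12 was left out, with an adjusted p of up to 0.099. H2AC25, an H2A gene of the same locus that starts 230 bases from H2BC26 on the other strand, differed by log2 0.46 in Huh7 and 0.59 in shRb, and neither passed (adjusted p = 0.34 and 0.059 from limma).

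H2AC21 (HIST2H2AB), an H2A gene of the HIST2 locus on chromosome 1, also rose in both lines. Its log2 level was 10.13 and 10.63 in Huh7 cells exposed to sorafenib, against 8.69 and 8.90 in Huh7 controls. It was 9.54, 9.97 and 10.05 in shRb cells exposed to sorafenib, against 8.83, 8.81 and 8.74 in shRb controls. The controls of both lines lay at nearly the same level, and each array with sorafenib lay above all of them. The rise was 3.00-fold in Huh7 (log2 1.59, SE 0.20, adjusted p = 0.0059 from limma) and 2.08-fold in shRb (log2 1.06, SE 0.17, adjusted p = 0.0063 from limma). The shRb call held without any 1 array, whereas the Huh7 call was lost without control replicate 1 or sorafenib replicate 6 (adjusted p up to 0.056). H2AC20, the brightest H2A cluster among those that name a single gene and also at HIST2, did not pass in either line, with 11.28 and 11.61 in Huh7 cells exposed to sorafenib, against 11.45 and 11.63 in Huh7 controls, and with 11.27, 11.26 and 11.36 in shRb cells exposed to sorafenib, against 11.57, 11.66 and 11.52 in shRb controls.

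H2BC13 and H2BC3, H2B genes of the HIST1 locus on chromosome 6, rose in Huh7 cells. H2BC13 (HIST1H2BL) was at 7.39 and 7.92 in Huh7 cells exposed to sorafenib, against 6.07 and 5.91 in Huh7 controls, and at 6.53, 6.49 and 7.00 in shRb cells exposed to sorafenib, against 5.92, 6.20 and 6.16 in shRb controls. H2BC3 (HIST1H2BB) was at 7.27 and 8.21 in Huh7 cells exposed to sorafenib, against 6.09 and 6.29 in Huh7 controls, and at 6.52, 6.92 and 6.46 in shRb cells exposed to sorafenib, against 6.41, 6.38 and 6.30 in shRb controls. The groups did not overlap in either line for either gene, but the sorafenib arrays of Huh7 lay far apart for H2BC3. The rise was 3.17-fold for H2BC13 (log2 1.66, SE 0.22, adjusted p = 0.0061 from limma) and 2.94-fold for H2BC3 (log2 1.55, SE 0.27, adjusted p = 0.020 from limma). In shRb the differences were 0.58 and 0.27 on the log2 scale and did not pass (adjusted p = 0.098 and 0.63 from limma). Without Huh7 sorafenib replicate 6 neither gene passed, and without control replicate 3 neither passed either. H2BC3 was also lost without control replicate 1. H2AC21, H2BC13 and H2BC26 are among the genes that the paper listed from these same arrays as raised by sorafenib, so its list is not independent evidence of their direction.

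H2BC5, an H2B gene of HIST1 known to be made as polyadenylated mRNA too, was the member that fell in both lines. It was at 5.65 and 5.77 in Huh7 cells exposed to sorafenib, against 6.86 and 7.13 in Huh7 controls, and at 6.87, 6.93 and 6.88 in shRb cells exposed to sorafenib, against 7.29, 7.47 and 7.54 in shRb controls. No group overlapped its control. It fell by 1.28 on the log2 scale in Huh7 (SE 0.13, adjusted p = 0.0022 from limma) and by 0.54 in shRb (SE 0.11, adjusted p = 0.021 from limma). The Huh7 call held without any 1 array, and the shRb call was lost without replicate 8, 9, 10 or 12 (adjusted p up to 0.082). Of the 6 histone genes listed as also made in polyadenylated form, 5 had a cluster of their own, and H2BC5 was the single one called. The other 4 (H2BC12, H2BC21, H2AC6 and H1-2) differed by -0.27 to 0.29 on the log2 scale in Huh7 and by -0.46 to 0.09 in shRb. H2BC12, the brightest H2B cluster among those that name a single gene, had 10.75 and 10.93 in Huh7 cells exposed to sorafenib, against 10.75 and 11.05 in Huh7 controls, so its groups overlapped.

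**Figure D3:**
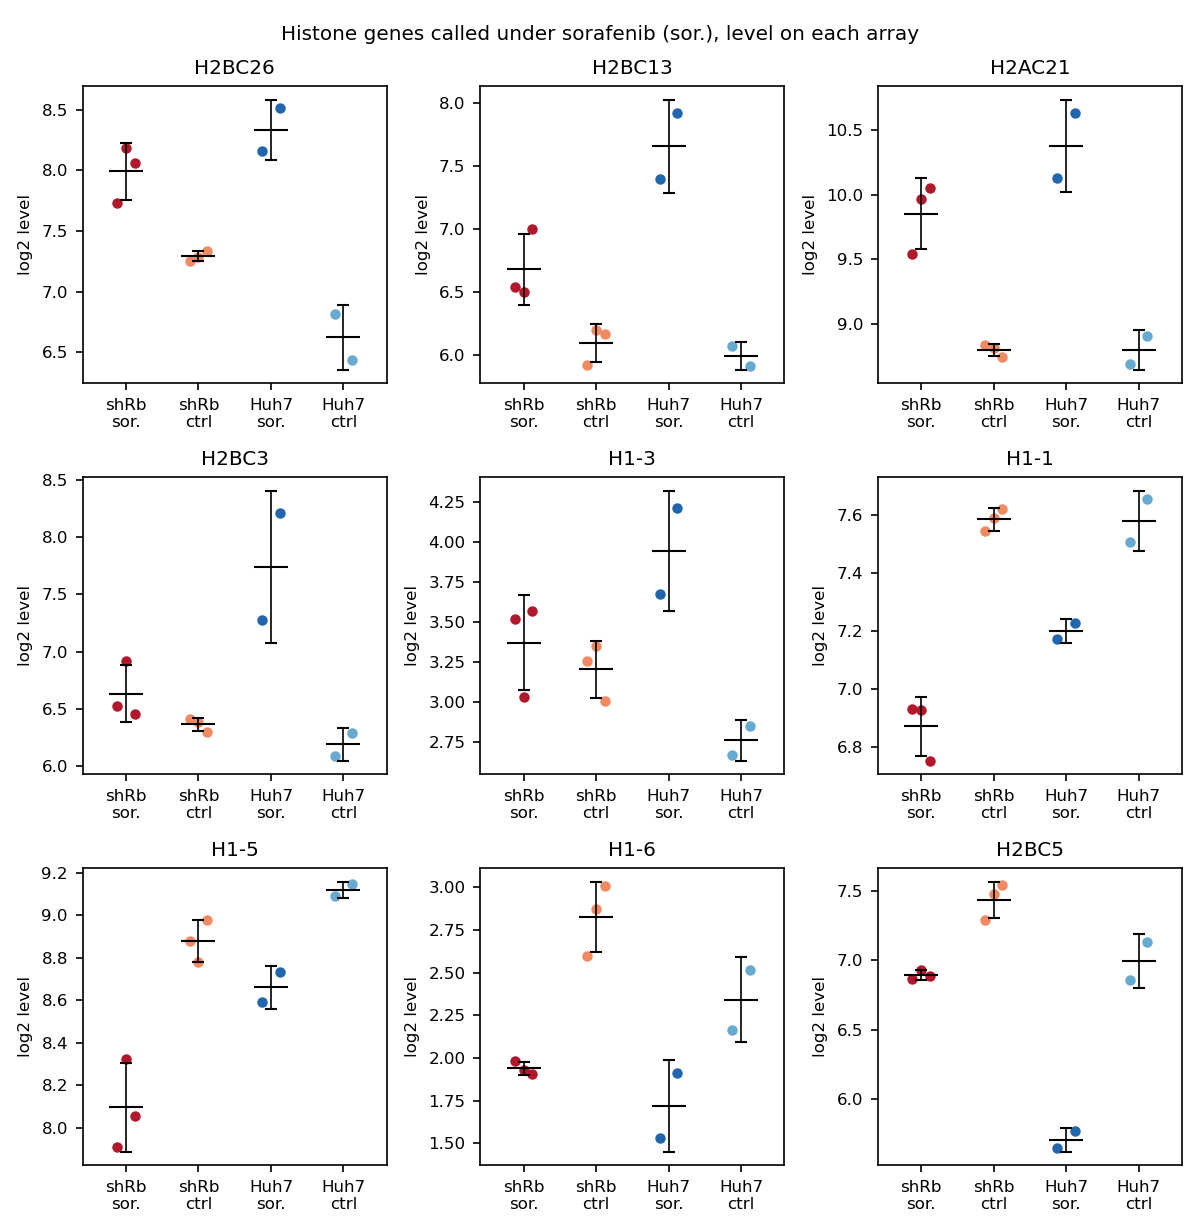
Log2 level on each array (points) of the 9 histone genes called under sorafenib in 1 line or both, with the mean and SD of each group (black), in shRb (red) and Huh7 (blue); vertical scales differ between panels. H2BC26 and H2AC21 lie higher and H2BC5 lower with sorafenib than without it in both lines.

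Linker histones of class H1 bind the DNA that enters and leaves the nucleosome. Of the 11 class members, 1 rose and 0 fell in Huh7 by limma, where 1.00% of all genes rose and 0.893% fell. In shRb 0 rose and 3 fell, where 2.96% of all genes rose and 3.74% fell. At an unadjusted p under 0.05, 3 were lower in Huh7 and 0 higher in shRb. H1-5 was at 7.91, 8.32 and 8.06 in shRb cells exposed to sorafenib, against 8.88, 8.78 and 8.98 in shRb controls, and fell by 0.78 on the log2 scale (SE 0.12, adjusted p = 0.0058 from limma). In Huh7 it was at 8.59 and 8.73 with sorafenib, against 9.09 and 9.15 in controls, a difference of -0.46 that did not pass (adjusted p = 0.19 from limma). In both lines, each array with sorafenib lay below all controls of its line.

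H1-1 was at 6.93, 6.93 and 6.75 in shRb cells exposed to sorafenib, against 7.54, 7.59 and 7.62 in shRb controls, and fell by 0.71 on the log2 scale (SE 0.10, adjusted p = 0.0028 from limma). In Huh7 it was at 7.17 and 7.23 with sorafenib, against 7.51 and 7.66 in controls, a difference of -0.38 (adjusted p = 0.17 from limma). H1-6, the linker histone of the testis, fell by 0.88 in shRb (SE 0.15, adjusted p = 0.0086 from limma), with 1.98, 1.93 and 1.91 in cells exposed to sorafenib, against 2.60, 2.88 and 3.00 in controls. Its Huh7 difference was -0.62 and did not pass (adjusted p = 0.15 from limma). The levels with sorafenib lay under the arrays' lower quartile (2.32 to 2.36) and those of the controls under their median, so H1-6 was among the dimmer clusters. The shRb calls of H1-5, H1-1 and H1-6 held without any 1 array.

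H1-3 was the H1 gene that rose in Huh7, with 3.68 and 4.21 in cells exposed to sorafenib, against 2.67 and 2.85 in controls (2.28-fold; log2 1.19, SE 0.23, adjusted p = 0.031 from limma). In shRb it was at 3.52, 3.03 and 3.57 with sorafenib, against 3.26, 3.35 and 3.01 in controls, and these groups overlapped. Its level in Huh7 controls lay under the median cluster of the arrays, and its call was lost without control replicate 1 or 3, sorafenib replicate 6 or shRb control replicate 7 (adjusted p up to 0.20). H1-4, the brightest H1 cluster among those that name a single gene, was at 10.11 and 9.91 in Huh7 cells exposed to sorafenib, against 10.04 and 9.92 in Huh7 controls. In shRb cells it was at 8.95, 9.45 and 9.31 with sorafenib, against 9.82, 9.63 and 9.75 in controls, a difference of -0.50 that missed the threshold (adjusted p = 0.072 from limma). Its shRb groups did not overlap, and its Huh7 groups did.

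H3C13 and H4C7 were the only H3 and H4 genes with a cluster of their own. H3C13 was at 7.67 and 8.13 in Huh7 cells exposed to sorafenib, against 6.99 and 7.48 in Huh7 controls (adjusted p = 0.48 from limma), and at 6.54, 7.19 and 7.73 in shRb cells exposed to sorafenib, against 6.90, 7.38 and 7.07 in shRb controls. H4C7 lay between 1.29 and 1.98 on all arrays, under the lower quartile of the arrays. The other H3 and H4 genes were measured only by clusters that several genes share.

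Of the 40 clusters named by several histone genes, 3 rose and 7 fell in Huh7 (0.776% and 1.26% of all clusters), and 0 rose and 9 fell in shRb by limma (2.30% and 3.09% of all clusters; at an unadjusted p under 0.05, 2 rose in shRb). One H3 cluster, which names 10 genes, fell most in both lines. It was at 6.39 and 6.43 in Huh7 cells exposed to sorafenib, against 8.45 and 8.70 in Huh7 controls, and at 6.62, 6.71 and 6.54 in shRb cells exposed to sorafenib, against 8.80, 8.78 and 8.70 in shRb controls. It fell by 2.17 on the log2 scale in Huh7 (SE 0.12, adjusted p = 0.00025 from limma) and by 2.14 in shRb (SE 0.10, adjusted p = 2.3e-05 from limma), and both calls held without any 1 array. Of the other 10 H3 clusters, 8 name the same 10 genes, and none of the 10 passed in either line (0 by limma; at an unadjusted p under 0.05, 3 were higher and 1 lower in Huh7, and 1 higher and 1 lower in shRb). They differed by -0.61 to 1.22 in Huh7 and by -0.42 to 0.47 in shRb. A pair of these 10 clusters holds identical values on all arrays and is 1 measurement, though both clusters are counted.

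Among the 14 shared H4 clusters, all of which name 14 genes, 4 fell and 2 rose in Huh7 by limma. In shRb 5 fell and 0 rose (0 rose at an unadjusted p under 0.05). Of all clusters, 1.26% fell and 0.776% rose in Huh7, and 3.09% fell and 2.30% rose in shRb. A pair of the falling clusters holds identical values on all arrays and counts as 1 measurement. One H4 cluster was at 5.49 and 4.89 in Huh7 cells exposed to sorafenib, against 6.93 and 6.63 in Huh7 controls, and at 6.08, 5.94 and 5.22 in shRb cells exposed to sorafenib, against 7.12, 7.45 and 7.10 in shRb controls, and fell by 1.59 in Huh7 and by 1.48 in shRb on the log2 scale (adjusted p = 0.027 and 0.0071 from limma). Another rose 2.16-fold in Huh7, with 8.01 and 8.23 in cells exposed to sorafenib, against 6.98 and 7.04 in controls (log2 1.11, SE 0.21, adjusted p = 0.029 from limma), and differed by 0.35 in shRb (adjusted p = 0.35 from limma). H4 clusters thus moved both ways in Huh7, although all of them carry the same 14 names. Among the 9 H2A clusters 1 fell in Huh7 and 2 in shRb, and among the 5 H2B clusters 1 rose and 1 fell in Huh7 and 1 fell in shRb.

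The counts for shared clusters in Huh7 rested on few arrays. Without control replicate 1, 0 rose and 1 fell, without control replicate 3, 1 rose and 2 fell, and without sorafenib replicate 6, 0 rose and 2 fell. Without shRb replicate 7, 8, 9 or 12, which enter only through the spread, 1 rose in Huh7. In shRb 6 to 8 shared clusters fell when any 1 array was left out.

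**Figure D4:**
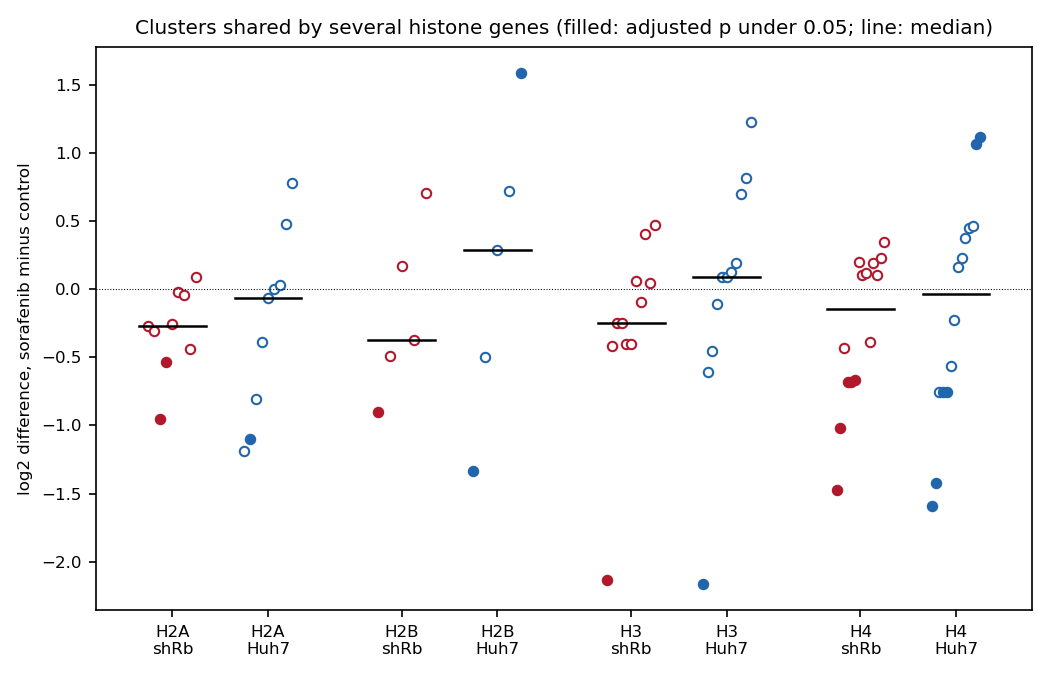
Log2 difference between sorafenib and control for clusters named by several histone genes of 1 class, in shRb (red) and Huh7 (blue), with the median as a black line. Filled points have an adjusted p under 0.05, and the H3 cluster near -2.1 in both lines stands apart from the other 10.

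The effect of sorafenib was then compared between the lines, with the difference itself as the test. No member passed (0 of 35 at an adjusted p under 0.05 from limma, where 0.0849% of all genes passed). At an unadjusted p under 0.05, 2 were higher and 8 lower in shRb, against 846 and 1136 of all 22392 genes. The smallest adjusted p belonged to H2BC5, H2BC26 and H2BC13. The effect in shRb minus that in Huh7 was 0.74 on the log2 scale for H2BC5 (SE 0.17, adjusted p = 0.27 from limma), and it was -1.01 for H2BC26 and -1.08 for H2BC13 (SE 0.24 and 0.28, adjusted p = 0.29 and 0.32 from limma). The log2 difference was lower in shRb than in Huh7 for 25 of the 35 members, and for 11817 of all 22392 genes. It was positive in both lines for 12 members and negative in both for 11, positive in Huh7 and negative in shRb for 8, and the reverse for 4. H2BC26, H2AC21 and H2BC5 were the 3 members called in both lines, and 9 were called in 1 line or both. The share over all genes was not computed for these counts or for the sign patterns. Neither is therefore read as a result about the members.

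Untreated shRb cells were set against untreated Huh7 cells, a comparison that uses the same control arrays as those above and in which batch and line cannot be told apart. No member passed (0 higher and 0 lower by limma, where 1.02% of all genes were higher and 0.536% lower). At an unadjusted p under 0.05, 11 of the 35 were higher and 1 lower, against 1515 and 1433 of all 22392 genes. The median log2 difference of the 35 members was 0.13 (all genes 0.01), and 24 members were positive, as were 11436 of all 22392 genes. H2BC9, an H2B gene chosen here after its values were seen, came nearest with a difference of 0.82 (adjusted p = 0.065 from limma). It was at 7.62, 7.95 and 7.92 in shRb controls, against 7.08 and 6.94 in Huh7 controls, without overlap. It passed with a trended and robust variance, among brighter clusters alone or without shRb sorafenib replicate 12.

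By locus, as the old gene names give it, the 22 members of HIST1 gave 3 rises and 1 fall in Huh7 by limma. In shRb they gave 0 rises and 4 falls (at an unadjusted p under 0.05, 1 was higher in shRb). Of all genes, 1.00% rose and 0.893% fell in Huh7, and 2.96% rose and 3.74% fell in shRb. The 6 members of HIST2 gave 1 rise and 0 falls in each line by limma (at an unadjusted p under 0.05, 1 was lower in Huh7 and 3 in shRb), and of the 2 members of HIST3 (H2BC26 and H2AC25) 1 rose in each line. In 4 pairs of members the genes start within 250 bases of each other on opposite strands. H2AC20 and H2BC21, 236 bases apart, were both negative in both lines, with -0.09 and -0.27 in Huh7 and -0.29 and -0.46 in shRb, and none passed. H2AC14 and H2BC14, 245 bases apart, differed by 0.67 and 0.32 in Huh7 and by 0.16 and -0.31 in shRb, and H2AC1 and H2BC1, 215 bases apart, differed by 0.48 and 0.00 in Huh7, again without passing. The 3 clusters of H2BC18 were not averaged, and the brightest was used.

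Genes that serve histone mRNA and S phase were read from the same fit. Of 20 measured genes of histone transcription and 3′ processing, 0 rose and 0 fell in Huh7 by limma (at an unadjusted p under 0.05, 3 were lower). In shRb 1 rose and 1 fell, where 2.96% of all genes rose and 3.74% fell. These counts are not read as a result about the list. SLBP, which binds the stem-loop, rose 1.33-fold in shRb, with 9.62, 9.77 and 9.68 in cells exposed to sorafenib, against 9.17, 9.37 and 9.30 in controls (adjusted p = 0.040 from limma). PCF11, a factor of transcription termination, fell by 1.29 on the log2 scale in shRb (adjusted p = 0.0059 from limma). The Huh7 differences of PCF11 and SLBP were -0.88 and 0.24 and did not pass (adjusted p = 0.13 and 0.44 from limma). NPAT differed by -0.55 in Huh7 and by -0.34 in shRb and did not pass (adjusted p = 0.30 and 0.37 from limma).

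Of 29 measured genes of S-phase entry and DNA replication, 0 rose and 3 fell in Huh7 by limma, where 0.893% of all genes fell. In shRb 0 rose and 8 fell, where 3.74% of all genes fell. At an unadjusted p under 0.05, 0 were higher in either line. PCNA, the sliding clamp of DNA polymerase, was at 8.33 and 8.15 in Huh7 cells exposed to sorafenib, against 9.18 and 9.39 in Huh7 controls, and at 8.46, 8.26 and 8.10 in shRb cells exposed to sorafenib, against 9.06, 9.22 and 9.16 in shRb controls. It fell by 1.05 in Huh7 and by 0.87 in shRb on the log2 scale (adjusted p = 0.0092 and 0.0035 from limma). CCNE1, the cyclin of S-phase entry, and CDC25A, a phosphatase that activates cyclin-dependent kinases, fell in both lines as well, by 0.71 and 0.59 in Huh7 and by 0.84 and 0.57 in shRb. GINS1, a subunit of the replicative helicase, fell by 0.68 in shRb (adjusted p = 0.0022 from limma). Its Huh7 difference was -0.29 and did not pass (adjusted p = 0.26 from limma). These falls stood beside both the rises and the falls of histone genes, and their part in either was not tested.

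Of 17 measured histone chaperones and assembly factors, none was called in Huh7 (0 by limma, with 2 lower at an unadjusted p under 0.05). In shRb 2 fell, where 3.74% of all genes fell. These were ASF1B and ASF1A, which hand H3 and H4 to the assembly factors. They fell by 0.66 and 0.40 on the log2 scale (adjusted p = 0.0069 and 0.046 from limma). Their Huh7 differences were -0.16 and -0.45 (adjusted p = 0.69 and 0.105 from limma). Of a list of 8 measured histone variants, 0 were called in Huh7 by limma (at an unadjusted p under 0.05, 3 were lower), and 2 fell in shRb. H2AX, the variant phosphorylated at DNA breaks, fell by 0.93 in shRb, with 6.30, 6.93 and 6.83 in cells exposed to sorafenib, against 7.73, 7.53 and 7.60 in controls (adjusted p = 0.0090 from limma). Its Huh7 difference was -0.66 and did not pass (adjusted p = 0.15 from limma). H2AZ1 fell by 0.61 in shRb (adjusted p = 0.0072 from limma) and differed by -0.55 in Huh7 (adjusted p = 0.051 from limma).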

How the data were processed

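RNA of 10 samples was labelled from total RNA with a random-primed kit and hybridized to HuGene 2.1 ST arrays. The deposited values are log2 levels of 53617 transcript clusters, which the authors made by RMA-sketch in Affymetrix Expression Console. RMA makes the arrays' distributions nearly equal and so hides any change in total RNA. The software version, annotation and genome build of the arrays are not given in the sources used here. The number of arrays limits the precision.

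The probe table named 23866 clusters by 1 gene symbol, 1852 by several and 27899 by none. For a gene with several clusters, the brightest over the 10 arrays was used. All 35 members matched RefSeq (GRCh38.p14), which gave loci and promoter sequences.

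In R 4.3.3, a limma 3.58.1 model held 1 mean for each of the 4 groups (6 residual degrees of freedom). A Benjamini-Hochberg correction ran over every cluster, and 0.05 was the threshold. The fit was tested on simulated data. Comparisons were sorafenib against control in each line, the difference of effects between the lines, and shRb against Huh7 without sorafenib. The sorafenib comparisons of the lines have no array in common but share the estimate of the spread. The other comparisons reuse their arrays, and no overlap between comparisons was tested. Both Huh7 sorafenib samples are labelled the second replicate, and p-values measure the spread between samples, which may be technical. The paper does not describe the shRb line.

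The members and gene lists were chosen with earlier results of these data known. Members named are those past the threshold (up to 6 a direction), the 3 with the smallest p for the difference of effects, the brightest member of each class, and 3 genes of the study's table. The other lists gave up to 4 genes a line, taken by p. Tried as alternatives were brighter clusters, a trended and robust variance, quantile normalization again, median centring, identical clusters once, the mean of a gene's clusters, the arrays of each comparison alone, a replicate block in shRb, the methods' t-test, and omission of each array. Medians without H1-10-AS1, the shared clusters and the neighbouring pairs were added after the data were seen.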

Additional observations from a re-analysis of the deposited data

How the results depend on the processing

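Over 614 values of single genes and of the shared H3 cluster under another setting, 567 kept direction and call, 41 lost the call, 6 gained it and none changed direction. In Huh7, 1 to 5 members were higher and 1 to 2 lower when any 1 array was left out. The count was 2 (H2BC13 and H2BC26) without control replicate 1, 2 (H2AC21 and H2BC26) without control replicate 3, and 1 (H2BC26) without sorafenib replicate 6. A lone array left in a group is assumed to vary like the other groups. On the Huh7 arrays alone 2 were higher. With a trended and robust variance or among brighter clusters only, 2 members were lower, H2BC5 and H2BC11, as without shRb sorafenib replicate 10 or 12. In shRb, 1 to 3 members were higher and 3 to 5 lower without 1 array, and untreated shRb had 0 to 1 higher. Untreated shRb had 1 member higher (H2BC9) with a trended and robust variance or among brighter clusters. Under sorafenib in shRb, H1-4 was also called in these 2 settings and without sorafenib replicate 11. The methods' t-test called 0 members higher and 0 lower in either line after adjustment. At its unadjusted threshold it called 5 higher and 6 lower in Huh7 and 4 higher and 8 lower in shRb.

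Samples of shRb that share a replicate label in their descriptions did not deviate together (correlations of deviations of -0.15, -0.16 and -0.05). With 3 samples a group this cannot exclude a pairing. With a replicate block 1 member was higher, 0 were lower and 3 shared clusters were lower. The median over members ranged from -0.1644 to -0.0325 in shRb, from 0.05 to 0.12 in Huh7 and from -0.32 to -0.12 for the difference of effects without 1 array, and was -0.29 for that difference among brighter clusters. Shared clusters numbered 0 to 3 higher and 1 to 8 lower in Huh7 and 6 to 8 lower in shRb without 1 array. Among brighter clusters 5 were higher in Huh7. On the Huh7 arrays alone 1 shared cluster was higher and 3 lower. The methods' t-test called 0 shared clusters higher and 0 lower in Huh7 and 3 lower in shRb. The causes of these changes were not tested. Signal limits H1-6, H4C7 and H1-3, which lie among dim clusters, and H1-3 and H1-6 have no value among brighter clusters.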
